A study of Mus musculus with 8 samples.

Results

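The let-7 family was followed through 4 days of embryoid body (EB) differentiation of KH2-DGCR8 mouse embryonic stem cells, with and without doxycycline (Dox). Its members were the mature miRNAs named mmu-let-7a, mmu-let-7b, mmu-let-7c, mmu-let-7d, mmu-let-7e, mmu-let-7f, mmu-let-7g, mmu-let-7i or mmu-miR-98, with any copy number and arm (the prefix mmu, for mouse, is dropped below). These came to 18 of the 1099 mature miRNAs in the table: 9 from the 5p arm of the hairpin and 9 from the 3p arm. Members were chosen by name and not by level. The 3p arms of the let-7a-2, let-7c-1 and let-7f-1 hairpins were not analysed here.

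The parent line, KH2, was engineered from mouse embryonic stem cells so that Dox switches on an inserted transgene, and in all 8 libraries the cells carried the genotype KH2-DGCR8. DGCR8 is the RNA-binding partner of DROSHA in the Microprocessor, which cuts hairpins out of primary miRNA transcripts. The question was how overexpressed DGCR8 bears on the making of miRNAs as EBs form. Small RNA was sequenced at days 0, 1, 2 and 4, once from cells given Dox and once from cells not given Dox at each day. Each of these 8 conditions had 1 library, so none was replicated, and the labels do not say that libraries came from separate cultures. The labels give neither how long Dox had been present at each day, day 0 included, nor whether KH2-DGCR8 is 1 clone. Small RNA libraries do not measure Dgcr8 mRNA or protein, so the induction of the transgene was not checked here.

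let-7 is a deeply conserved miRNA family that represses growth and stem cell genes, among them Hmga2, Myc and Lin28a. In embryonic stem cells the let-7 primary transcripts are made but little mature let-7 accumulates, because LIN28 proteins bind the loop of the precursor, where the letters GGAG are a preferred contact, and block its maturation. As cells differentiate, LIN28 is lost and mature let-7 accumulates. The strand that enters Argonaute is mostly the 5p strand, and its seed, bases 2 to 8, pairs with target mRNAs.

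The 9 5p members are printed because they differ by few bases, some by only 1. The labels do not say whether reads this alike were told apart in counting, so such members may share reads. The sequences are RefSeq's on GRCm38.p6 (mm10), matched for 18 of 18 members, and run 5′ to 3′. Capitals mark the seed.
let-7a-5p: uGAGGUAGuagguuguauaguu
let-7b-5p: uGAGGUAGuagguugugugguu
let-7c-5p: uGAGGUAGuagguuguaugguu
let-7d-5p: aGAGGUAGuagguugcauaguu
let-7e-5p: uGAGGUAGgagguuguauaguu
let-7f-5p: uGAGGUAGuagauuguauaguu
let-7g-5p: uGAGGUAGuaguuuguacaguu
let-7i-5p: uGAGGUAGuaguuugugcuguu
miR-98-5p: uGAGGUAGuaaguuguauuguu

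All 9 have 22 bases and 1 shared seed. Whether the libraries captured each of these sequences equally well was not tested. Positions are counted from 1 at the 5′ end, and the base of the first-named miRNA stands first. let-7c-5p differs from let-7a-5p by A19G alone. let-7e-5p differs from it by U9G, and let-7f-5p by G12A. let-7b-5p and let-7c-5p are also 1 base apart, at G17A. The 3p arms do not share a seed: that of let-7a-1, let-7b, let-7c-2 and miR-98 is UAUACAA, while that of let-7g is CUGUACA and that of let-7i is UGCGCAA. let-7a-1-3p and let-7c-2-3p have 1 and the same sequence and were listed with the same value in all 8 libraries, so they cannot be told apart.

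The mature sequences come from 12 hairpins, 3 of them in a row on chromosome 13. Mirlet7d at chr13:48536012-48536114, Mirlet7f-1 at chr13:48537829-48537917 and Mirlet7a-1 at chr13:48538179-48538272 lie on the minus strand, all overlapping exons of the noncoding RNA 6720427I07Rik. Mirlet7c-2 at chr15:85706603-85706697 and Mirlet7b at chr15:85707319-85707403 overlap exons of the noncoding Lncppara on the plus strand. Mirlet7f-2 at chrX:151912346-151912428 and Mir98 at chrX:151913214-151913321 sit in introns of Huwe1, which encodes a ubiquitin ligase. Mirlet7g lies in an intron of Wdr82 at chr9:106178840-106178927, and Mirlet7e in an intron of Spaca6 at chr17:17830352-17830444. Mirlet7a-2, Mirlet7c-1 and Mirlet7i lie on chromosomes 9, 16 and 10. let-7a-5p, let-7c-5p and let-7f-5p are each made from 2 hairpins, and the table gives 1 value for both copies.

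The loop between the arms held the letters GGAG in 9 of the 12 let-7 hairpins, searched on the transcribed strand only, since the motif is an RNA contact. Among the other mouse hairpins whose loops were of 23 to 36 bases it was held by 7 of 50, or 14.0%. The loops of Mirlet7g and Mirlet7a-1 are shown as examples with the motif, which stands in capitals, and those of Mirlet7b and Mirlet7c-2 as examples without it.
Mirlet7g: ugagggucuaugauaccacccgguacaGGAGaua
Mirlet7a-1: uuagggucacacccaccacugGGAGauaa
Mirlet7b: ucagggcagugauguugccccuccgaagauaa
Mirlet7c-2: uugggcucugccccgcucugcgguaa
A missing match says only that these letters are not in the window. let-7b-5p is thus made from a hairpin that lacks the motif, while let-7c-5p has 1 hairpin with it, Mirlet7c-1, and 1 without it.

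Levels are in RPM, reads after each library is brought to the same total, and were deposited as whole numbers. The steps between low values gave implied totals of 362483 reads (day 4 without Dox) to 541342 reads (day 4 with Dox), so 1 read was worth 1.85 to 2.76 RPM and a level of 3 reads 5.54 to 8.28 RPM. All 8 stem cell markers on the list, miRNAs of the miR-290 cluster, were above 0, and together they fell to 213844 RPM with Dox and 151572 RPM without Dox at day 4, against 373277 RPM with Dox and 423773 RPM without Dox at day 0. The 5 epiblast markers, miR-302 and miR-367, summed to 31166 RPM at day 4 without Dox and to between 301 and 2151 RPM in the other 7 libraries, so that library stood apart from the rest. In these bulk libraries a change in the share of cells of a type and a change in RNA per cell cannot be told apart.

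All 9 5p members together were a small part of the miRNA pool, and their share was highest at days 1 and 2. They summed to 1870, 4420, 4227 and 1993 RPM at days 0, 1, 2 and 4 with Dox, against 1841, 4806, 4360 and 2639 RPM without Dox. With both arms counted, the family's share of the implied reads with Dox was 0.192%, 0.445%, 0.425% and 0.204% at the 4 days, against 0.186%, 0.484%, 0.439% and 0.265% without Dox. The 4 libraries of days 1 and 2 all lay above the 4 libraries of days 0 and 4. The 5p sum at day 1 was 2.36 times the day 0 sum with Dox (interval 2.17 to 2.58) and 2.61 times it without Dox (2.40 to 2.84). These are exact conditional binomial intervals at 95% on the implied reads of 2 libraries. They cover counting error alone (copies made by PCR do not count separate molecules), and no counting interval here covers variation between cultures.

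let-7a-5p was the most abundant member in each of the 8 libraries, followed in each by let-7c-5p and then let-7b-5p. let-7a-5p made up 28.3% to 30.7% of the 5p sum. let-7c-5p made up 19.6% to 24.3% and let-7b-5p 16.1% to 22.1%. let-7b-5p was above let-7g-5p in each library, but let-7g-5p and let-7f-5p changed places, with let-7g-5p at between 0.926 and 1.50 times let-7f-5p. let-7e-5p reached the level of let-7f-5p in 1 library, at 188 RPM each on day 4 without Dox. let-7i-5p lay at between 0.373 and 1.18 times let-7e-5p, so the order of this pair also changed. let-7d-5p and miR-98-5p were lowest, at means of 20.5 and 8.38 RPM over the 8 libraries, of which miR-98-5p is near the level of 3 reads.

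**Figure D1:**
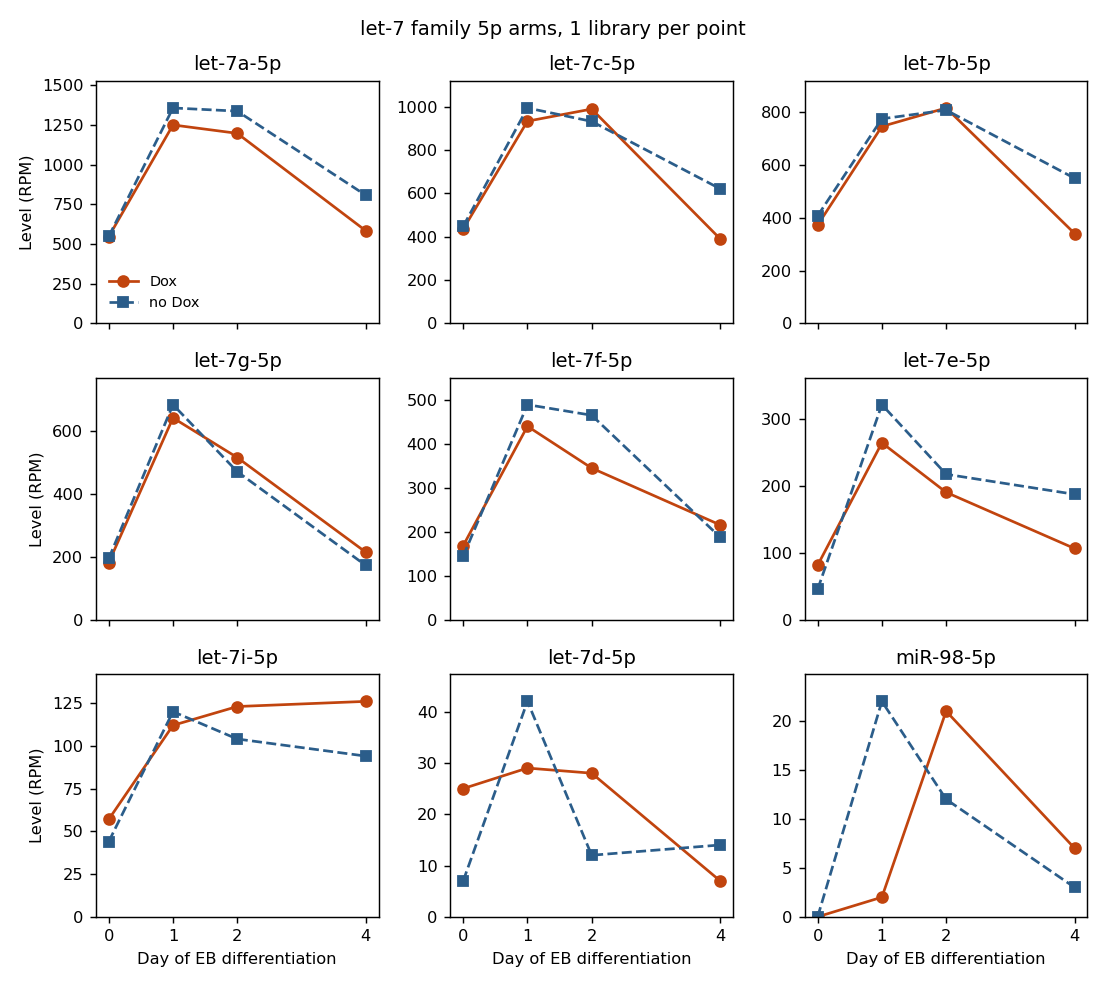
Level in RPM (vertical axis, own scale per panel, from 0) of the 9 let-7 5p members against day of EB differentiation, with Dox (circles, solid line) and without Dox (squares, dashed line), 1 library per point. In the panels of let-7a, c, b, g, f and e the day 1 and day 2 points lie above all day 0 and day 4 points, while let-7i stayed near 94 to 126 RPM from day 1 on.

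Between day 0 and day 1 the family's abundant members rose together. let-7e-5p, let-7g-5p, let-7f-5p, let-7a-5p, let-7c-5p and let-7b-5p passed the test, which makes 6 of the 16 members tested higher, where 8.1% of all 839 miRNAs tested passed in either direction and 7.03% were higher. A miRNA was tested if it had at least 1 RPM in at least 2 libraries, and 16 of the 18 members did: let-7b-3p and let-7i-3p, each above 0 in 1 library, did not. The test was limma's moderated test on log2(RPM + 1) over all 8 libraries, with terms for day and treatment, and p-values were adjusted over the 839 (Benjamini-Hochberg, threshold 0.05). The median log2 change of the 8 members with a mean of at least 10 RPM was 1.28, beside 0.33 over the 499 miRNAs at that level. With the test refitted on these 499, 7 of the 8 members were higher, where 80 of the 499 passed in either direction.

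let-7e-5p, made from a hairpin on chromosome 17, had the largest change of the 6. It had 82, 265, 191 and 107 RPM at days 0, 1, 2 and 4 with Dox, against 46, 322, 218 and 188 RPM without Dox. Both day 1 libraries were above every other library, and both day 0 libraries were the lowest. The log2 change from day 0 was 2.23 (SE 0.40), a 4.69-fold rise, with an adjusted p of 7.07e-06 in limma. Within the treatments the day 1 level was 3.23 times that of day 0 with Dox (2.16 to 4.96) and 7.0 times it without Dox (4.32 to 12.0).

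let-7g-5p, from the Wdr82 intron, had 183, 643, 517 and 216 RPM with Dox at days 0, 1, 2 and 4, against 196, 685, 472 and 174 RPM without Dox. Its day 0 and day 4 libraries were at 216 RPM or less and its day 1 and day 2 libraries at 472 RPM or more. The rise at day 1 was 3.49-fold (log2 1.80, SE 0.35, limma adjusted p 2.83e-05).

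let-7f-5p, here in RPM computed from its implied reads and so with a decimal, had 169.5, 440.3, 344.6 and 216.1 RPM with Dox at days 0, 1, 2 and 4, against 145.4, 489.1, 465.0 and 187.6 RPM without Dox. The groups of days did not overlap here either. Its day 1 level was 2.95-fold that of day 0 (log2 1.56, SE 0.36, limma adjusted p 0.000599).

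let-7a-5p had 547, 1251, 1198 and 584 RPM with Dox at the 4 days, against 548, 1358, 1338 and 808 RPM without Dox. The day 0 libraries with and without Dox were 1 RPM apart, and the day 4 library without Dox was the highest outside days 1 and 2. The rise at day 1 was 2.38-fold (log2 1.25, SE 0.30, limma adjusted p 0.000979).

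let-7c-5p had 435, 933, 989 and 390 RPM with Dox at the 4 days, against 448, 994, 932 and 621 RPM without Dox. let-7b-5p, made from the neighbouring hairpin, had 372, 745, 815 and 340 RPM with Dox, against 407, 774, 807 and 549 RPM without Dox. Each was about level between days 1 and 2 and was lowest of all at day 4 with Dox. let-7c-5p rose 2.18-fold at day 1 (log2 1.12, SE 0.31, limma adjusted p 0.00597) and let-7b-5p 1.95-fold (log2 0.96, SE 0.32, limma adjusted p 0.0328). let-7b-5p thus had the smallest fitted change of the 6, but whether it differed from the others was not tested.

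let-7i-5p had a fitted log2 change of 1.19 at day 1 with an adjusted p of 0.0777 in limma, and let-7d-5p 1.32 with an adjusted p of 0.274. miR-98-5p was listed at 0 in both day 0 libraries and at 2 RPM with Dox and 22 RPM without Dox at day 1, which are 1 and 10 implied reads, so no fold is given. A count of 0 allows up to 8.20 RPM in the day 0 library with Dox and 7.27 RPM in that without Dox.

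The count of 6 depended on single libraries. Left without the day 1 no-Dox library it was 0, without the day 0 no-Dox library 1 (let-7g-5p), without the day 1 Dox library 2 (let-7e-5p and let-7g-5p) and without the day 0 Dox library 4, the lone remaining library of that day being assumed to vary like the others, while the fitted direction of all 6 stayed the same in all 19 alternatives. The filters, the prior variance, the treatment term and leaving out days or libraries not compared cannot change these fitted values. Their direction could turn only in the other alternatives. Scaling by the median of ratios lowered the median log2 change of all miRNAs to 0.02, against 0.37 on the deposited scale. On that scaling 4 members passed, without let-7c-5p (0.75, adjusted p 0.144) and let-7b-5p (0.59, adjusted p 0.304). Marker sums also differed between these days. The list called fibroblast markers here was drawn up for differentiated or fibroblast (feeder) cells, so it is not particular to fibroblasts. The 6 of 7 fibroblast markers in the table summed to 26053 RPM with Dox and 26309 RPM without Dox at day 1, against 19231 RPM with Dox and 13344 RPM without Dox at day 0. The 4 of 5 blood markers in the table summed to 514 RPM with Dox and 856 RPM without Dox at day 1, against 1131 RPM with Dox and 1222 RPM without Dox at day 0. Both neural markers summed to 4082 RPM with Dox and 5216 RPM without Dox at day 1, against 3045 RPM with Dox and 3631 RPM without Dox at day 0, and the epiblast markers to 638 RPM with Dox and 722 RPM without Dox, against 301 RPM with Dox and 357 RPM without Dox. The stem cell markers summed to 356852 RPM with Dox and 369574 RPM without Dox at day 1, against 373277 RPM with Dox and 423773 RPM without Dox at day 0. The 2 of 3 muscle markers in the table summed to 4 RPM with Dox and 0 RPM without Dox at day 1, against 0 RPM with Dox and 7 RPM without Dox at day 0. No marker in the table was at 0 in all 8 libraries. Whether these sums reflect cells of those types, and the part of such cells in the let-7 change, was not tested.

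**Figure D2:**
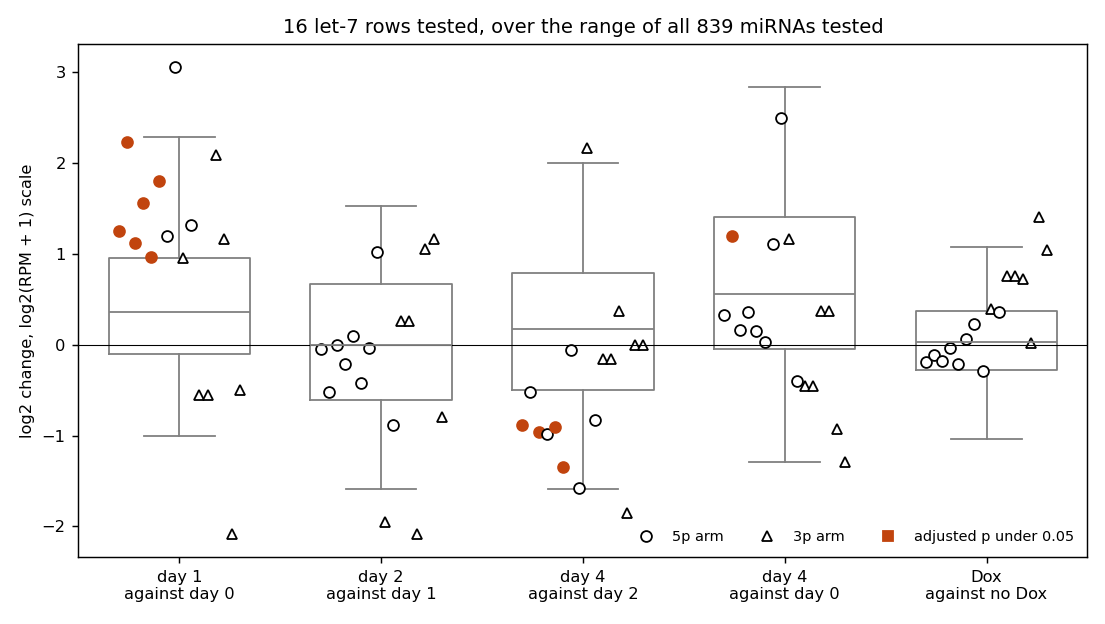
Fitted log2 change on the log2(RPM + 1) scale (vertical axis) of the 16 tested let-7 rows for the 4 day comparisons and Dox against no Dox (horizontal axis), as circles for 5p and triangles for 3p arms, filled where the adjusted p was under 0.05, over grey boxes of all 839 miRNAs (median, interquartile range, whiskers at the 5th and 95th percentiles). The 6 filled circles of day 1 against day 0 lie between 0.96 and 2.23, and the 4 of day 4 against day 2 between -1.34 and -0.88, while there is none for Dox. The highest open circle at day 1 against day 0 is miR-98-5p, listed at 0 in both day 0 libraries.

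From day 1 to day 2 no member passed: 0 of 16, where 3.58% of the 839 did. In limma 0 members had an unadjusted p under 0.05, and with limma-voom on the implied reads 0 passed and 1 had an unadjusted p under 0.05. The median change of the 8 members with a mean of at least 10 RPM was -0.13, beside 0.10 over the 499. With the test refitted on these 499, 0 of the 8 members passed, where 43 of the 499 did. let-7g-5p was at 0.745-fold its day 1 level (95% interval of the fit 0.465 to 1.19, limma adjusted p 0.571) and let-7e-5p at 0.700-fold (0.405 to 1.21, limma adjusted p 0.556). let-7c-5p was at 0.997-fold (0.656 to 1.52, limma adjusted p 1).

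From day 2 to day 4 4 of the more abundant members were called lower. let-7g-5p, let-7c-5p, let-7b-5p and let-7a-5p passed, so 4 of 16 members were lower, where 9.3% of all 839 miRNAs passed in either direction and 3.81% were lower. let-7g-5p, at 216 RPM with Dox and 174 RPM without Dox at day 4, against 517 RPM with Dox and 472 RPM without Dox at day 2, fell by 1.34 in log2 (SE 0.35, adjusted p 0.0025 in limma). let-7c-5p fell by 0.96 (SE 0.31, limma adjusted p 0.0265). let-7b-5p fell by 0.91 (SE 0.32, limma adjusted p 0.0458) and let-7a-5p by 0.88 (SE 0.30, limma adjusted p 0.0357). The median of the 8 members with a mean of at least 10 RPM was -0.89, beside 0.21 over the 499. With the test refitted on these 499, 5 of the 8 members were lower, where 89 of the 499 passed in either direction.

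The other members did not pass. let-7f-5p had a fitted change of -0.99, larger in size than those of let-7c-5p, let-7b-5p and let-7a-5p. It missed the threshold at an adjusted p of 0.0594 in limma, but passed on 3 of the 9 other processing settings. In implied reads its day 4 level was 0.627 times that of day 2 with Dox (0.490 to 0.801) and 0.403 times it without Dox (0.302 to 0.534). let-7i-5p had 57, 112, 123 and 126 RPM with Dox at days 0, 1, 2 and 4, against 44, 120, 104 and 94 RPM without Dox. Its day 4 library with Dox lay just above, and that without Dox just below, the 104 to 123 RPM of days 1 and 2, and its fitted change from day 2 was -0.05 (SE 0.45, limma adjusted p 0.997). As a result let-7i-5p made up 6.32% of the 5p sum at day 4 with Dox and 3.56% without Dox, against 2.91% with Dox and 2.39% without Dox at day 2. Whether let-7i-5p differed from the other members between these days was not tested.

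The count of 4 at day 4 was 0 without the day 2 Dox library or without the day 2 no-Dox library. It was 1, let-7g-5p alone, without the day 1 Dox or the day 1 no-Dox library, and 2 without the day 0 Dox or the day 0 no-Dox library (let-7c-5p and let-7g-5p) or the day 4 Dox library (let-7f-5p and let-7g-5p), and the fitted direction of the 4 stayed the same in all 19 alternatives. Without the day 4 no-Dox library, the one with high miR-302, the 4 were called again. Here too the filters, the prior variance, the treatment term and leaving out days or libraries not compared cannot change the fitted values. At day 4 the fibroblast markers summed to 57499 RPM with Dox and 39579 RPM without Dox, against 32660 RPM with Dox and 24508 RPM without Dox at day 2, and the stem cell markers to 213844 RPM with Dox and 151572 RPM without Dox, against 343105 RPM with Dox and 333299 RPM without Dox at day 2. The blood markers summed to 104 RPM with Dox and 81 RPM without Dox at day 4, against 241 RPM with Dox and 306 RPM without Dox at day 2. The neural markers were near level, at 5231 RPM with Dox and 7354 RPM without Dox, against 4909 RPM with Dox and 7389 RPM without Dox at day 2. The muscle markers summed to 53 RPM with Dox and 130 RPM without Dox, against 0 RPM with Dox and 29 RPM without Dox at day 2. The epiblast markers summed to 2151 RPM with Dox and 31166 RPM without Dox at day 4, against 1163 RPM with Dox and 2140 RPM without Dox at day 2. Whether these sums reflect cells of those types, and the part of such cells in the let-7 values, was not tested.

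Over the whole course let-7e-5p was the member that passed the test. Its day 4 level was 2.29-fold that of day 0 (log2 1.19, SE 0.40, limma adjusted p 0.0155), so 1 of 16 members passed, where 25.7% of all 839 miRNAs did and 21.9% were higher. let-7i-5p was at 2.15-fold (log2 1.10, SE 0.45) with an adjusted p of 0.0523 in limma, and in implied reads at 2.19 times its day 0 level with Dox (1.32 to 3.76) and 2.15 times it without Dox (1.18 to 4.04). let-7g-5p was at 1.02-fold (0.640 to 1.64), let-7c-5p at 1.11-fold (0.733 to 1.69) and let-7b-5p at 1.11-fold (0.723 to 1.71), none of which passed.

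Scaling mattered most in this comparison. Median-of-ratios scaling put the median log2 change of all miRNAs at 0.01, against 0.56 on the deposited scale, and turned the fitted direction of the 5p arms of let-7a, b, c, f and g, which had values of 0.03 to 0.36 on the deposited scale and -0.56 to -0.23 on that one. let-7e-5p kept its direction at 0.60 but no longer passed (adjusted p 0.317). Its call was also absent without the day 0 no-Dox, the day 2 Dox, the day 2 no-Dox or the day 4 no-Dox library. In implied reads let-7e-5p at day 4 was 1.31 times its day 0 level with Dox (0.827 to 2.10) and 4.07 times it without Dox (2.42 to 7.18).

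The pattern of high values at days 1 and 2 was also counted over all miRNAs. For let-7a, b, c, e, f and g, 6 of 16 members, all 4 libraries of days 1 and 2 lay above all 4 of days 0 and 4, which held for 31 of the 839 miRNAs tested, or 3.69%. The days were grouped this way after the values were seen, so no test is given. By the Pearson correlation of log2 values over the 8 libraries with the 5p sum, given as a description, let-7a-5p followed the sum of the other 5p members most closely (0.99), and let-7i-5p (0.66) and let-7d-5p (0.64) least among the members with a mean of at least 10 RPM. Outside the family the 5 most similar of 491 miRNAs with such a mean were miR-484 (0.98), miR-429-3p (0.96), miR-130a-3p (0.94), miR-34a-5p (0.93) and miR-182-3p (0.91). The points are the same 8 libraries for each miRNA, and the values of each library share 1 total. miR-429-3p, of the miR-200 family, had 391, 1333, 1634 and 624 RPM with Dox at days 0, 1, 2 and 4, against 461, 1961, 2197 and 1043 RPM without Dox.

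**Figure D3:**
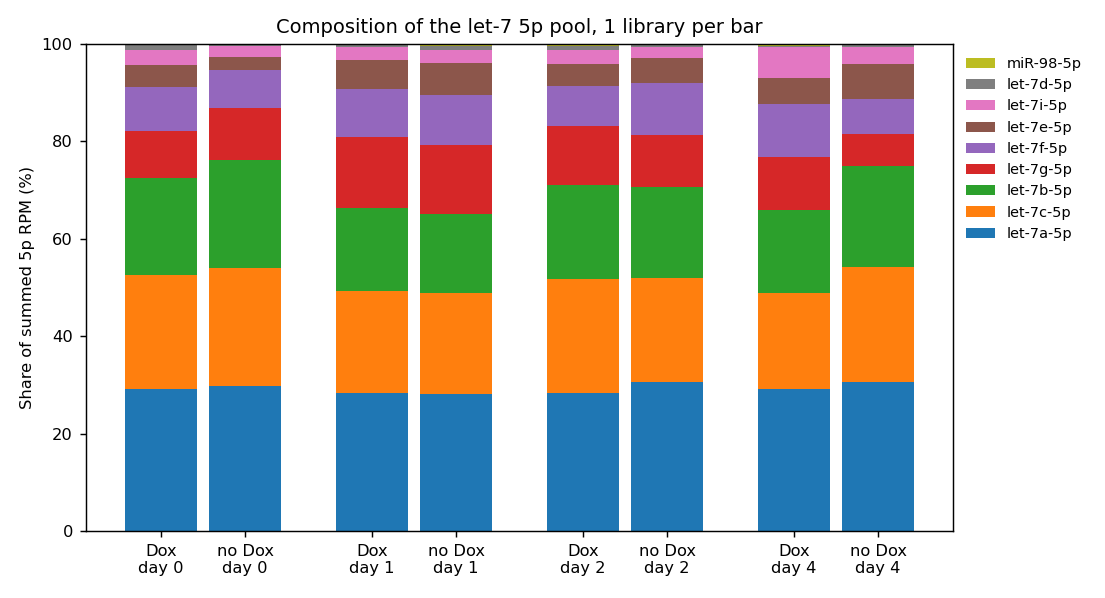
Share in percent (vertical axis, 0 to 100) of the summed 5p RPM held by each of the 9 let-7 5p members, 1 stacked bar per library, Dox left of no Dox within each day. let-7a keeps 28.3% to 30.7% in every bar, let-7g runs from 6.59% to 14.5%, and let-7i reaches 6.32% at day 4 with Dox.

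The makeup of the family varied between libraries, and no test was made of it. The 3 leading members, let-7a-5p with its near relatives b and c, together held 72.4%, 66.3%, 71.0% and 65.9% of the 5p sum with Dox at days 0, 1, 2 and 4, against 76.2%, 65.0%, 70.6% and 75.0% without Dox. let-7e-5p, let-7f-5p and let-7g-5p together held 23.2%, 30.5%, 24.9% and 27.0% with Dox, against 21.0%, 31.1%, 26.5% and 20.8% without Dox. Both day 1 libraries thus had the largest part of let-7e, let-7f and let-7g. At day 4 the sum of these 3 was the larger share with Dox, although let-7e-5p alone held 5.37% with Dox and 7.12% without Dox.

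Over all days together no member passed the test for Dox. In limma 0 of 16 members passed, where 1.91% of the 839 did, 0 members had an unadjusted p under 0.05, and limma-voom on the implied reads also called 0. The adjusted p-values ran from 0.567 to 1. let-7a-5p with Dox was at 0.878-fold its level without Dox (95% interval of the fit 0.661 to 1.17), let-7b-5p at 0.862-fold (0.636 to 1.17) and let-7c-5p at 0.883-fold (0.657 to 1.19). let-7e-5p was at 0.924-fold (0.627 to 1.36), let-7f-5p at 0.972-fold (0.690 to 1.37), let-7g-5p at 1.04-fold (0.749 to 1.46) and let-7i-5p at 1.17-fold (0.764 to 1.80). For these 7 members the intervals reach from 0.627 to 1.80, and a difference within them was not detectable with 8 libraries.

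Single days were also compared, 1 library over another. At day 4 let-7b-5p with Dox was at 0.619 times its level without Dox (counting interval 0.504 to 0.760), let-7c-5p at 0.628 times (0.518 to 0.761), let-7a-5p at 0.722 times (0.614 to 0.850) and let-7e-5p at 0.571 times (0.395 to 0.823). For these 4 of the 16 members the interval lay below 1, where it did for 18.1% of all 839 miRNAs. It left out 1 on either side for 32.5% of all miRNAs and, of the 499 with a mean of at least 10 RPM, for 52.7%, with 29.1% below 1, beside 4 of the 8 members at that level. let-7g-5p was at 1.24 times (0.908 to 1.72), let-7f-5p at 1.15 times (0.847 to 1.58) and let-7i-5p at 1.34 times (0.875 to 2.09). These ratios compare 2 libraries and not the conditions.

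At day 0 the interval left out 1 for 0 of the 16 members, where it did so for 18.6% of all 839 miRNAs, and let-7a-5p with Dox was at 0.998 times its level without Dox (0.821 to 1.21). At day 1 it left out 1 for miR-98-5p alone, with 1 read with Dox against 10 reads without Dox (21.2% of all miRNAs). At day 2 it did so for let-7f-5p alone, at 0.741 times (0.598 to 0.917), where it did for 25.7% of all miRNAs. let-7e-5p with Dox was at 1.78 times its level without Dox at day 0 (0.970 to 3.35), and let-7d-5p, from 9 reads with Dox and 3 reads without Dox, at 3.38 times (0.844 to 19.4). The 5p sum with Dox was 1.01 (0.914 to 1.13), 0.920 (0.867 to 0.976), 0.969 (0.909 to 1.03) and 0.756 (0.692 to 0.825) times that without Dox at days 0, 1, 2 and 4.

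**Figure D4:**
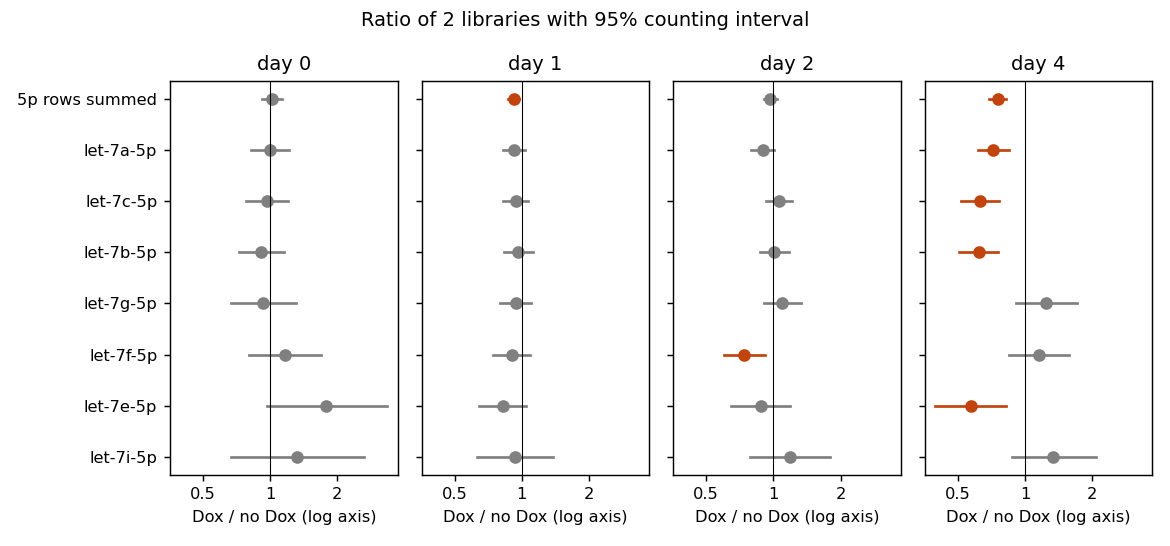
Ratio of the level with Dox to that without Dox (horizontal log axis) for the 5p sum and 7 let-7 members (vertical axis), 1 panel per day, each point 1 library over another and each bar its 95% counting interval, coloured where it leaves out 1. At day 4 the sum, let-7a, let-7c, let-7b and let-7e lie left of 1, at 0.571 to 0.756, and let-7g, let-7f and let-7i do not.

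A change of the Dox difference along the days was not detected either. The slope of the difference per day passed for 0 of 16 members, where 0.954% of the 839 passed, with 0 members at an unadjusted p under 0.05 in limma and 0 calls in limma-voom. Its lowest adjusted p among members was 0.429, for let-7e-5p, whose log2 Dox difference fell by 0.35 per day (SE 0.18). Other values stood apart between the 2 libraries of day 4: with Dox the epiblast markers summed to 2151 RPM, against 31166 RPM without Dox, and the stem cell markers to 213844 RPM, against 151572 RPM without Dox. The fibroblast markers summed to 57499 RPM with Dox, against 39579 RPM without Dox. Their part in the day 4 let-7 ratios was not tested.

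The 3p arms were near the detection limit. No 3p member had more than 8 implied reads in a library, and over all libraries the 9 rows had 110 reads, against 11755 for the 9 5p rows. let-7a-1-3p and let-7c-2-3p, which have the same sequence, each held 30 of the 110, and these may be the same reads. Of the 5p rows 8 had a mean of at least 10 RPM, and of the 3p rows 0. let-7a-1-3p and let-7c-2-3p had 14, 6, 9 and 15 RPM with Dox at days 0, 1, 2 and 4, against 7, 7, 7 and 3 RPM without Dox.

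Where a hairpin's arms can be paired without shared sequence, the 5p arm led to different degrees. Summed over the 8 libraries, let-7g had 470 5p reads for each 3p read (95% counting interval 161 to 2283) and let-7e 49.2 (28.5 to 92.8). let-7d had 10.4 (4.81 to 26.9) and miR-98 4.43 (1.91 to 11.9). let-7b and let-7i each had 1 3p read in all, beside 2144 and 355 5p reads. The labels do not say how reads that match several members were assigned.

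let-7e shares its stretch of chromosome 17 with miR-99b and miR-125a. miR-99b-5p had 1662, 2715, 3265 and 4768 RPM with Dox at days 0, 1, 2 and 4, against 1803, 2419, 2738 and 4538 RPM without Dox. It was higher on each later day in both treatments, unlike let-7e-5p, which was highest at day 1. The 3p arm of miR-99b was instead highest at day 2 in both treatments. miR-99b-3p had 107, 276, 338 and 251 RPM with Dox at the 4 days, against 141, 245, 410 and 406 RPM without Dox. miR-125a-5p had 563, 838, 340 and 985 RPM with Dox at the 4 days, against 342, 734, 458 and 985 RPM without Dox. Both its day 4 libraries were above every other library, where let-7e-5p was below its day 1 level.

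The level of let-7e-5p per miR-99b-5p was 0.0493, 0.0976, 0.0585 and 0.0224 with Dox at days 0, 1, 2 and 4, against 0.0255, 0.133, 0.0796 and 0.0414 without Dox. This ratio was highest at day 1 in both treatments. The level of let-7e-5p per miR-125a-5p was instead highest at day 2, at 0.562 with Dox and 0.476 without Dox, against 0.316 with Dox and 0.439 without Dox at day 1. From day 0 to day 4 miR-99b-5p rose by 1.43 in log2 (SE 0.27, limma adjusted p 1.74e-06) and miR-125a-5p by 1.16 (SE 0.31, limma adjusted p 0.00151). The Dox difference of miR-99b-5p was 0.09 (SE 0.19, limma adjusted p 0.94).

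**Figure D5:**
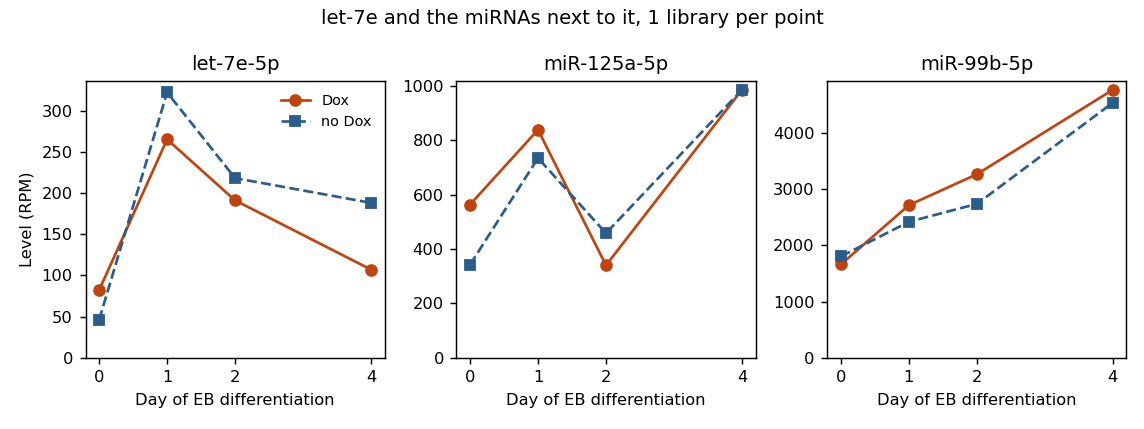
Level in RPM (vertical axis, own scale per panel, from 0) of let-7e-5p, miR-125a-5p and miR-99b-5p, whose hairpins lie together on mouse chromosome 17, against day, with Dox (circles, solid line) and without Dox (squares, dashed line), 1 library per point. let-7e-5p peaks at day 1 in both treatments, miR-125a-5p is at 985 RPM in both day 4 libraries, and miR-99b-5p reaches 4768 RPM with Dox and 4538 RPM without Dox at day 4.

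The related clusters hold miR-99a beside let-7c-1, 656 bases apart, and miR-100 and miR-125b-1 at 5211 and 45114 bases from let-7a-2 on chromosome 9. Of the 10 miR-99, miR-100 and miR-125 rows listed, 8 were tested, miR-100-3p and miR-125b-2-3p being listed at 0 throughout. From day 2 to day 4 3 of the 8 were higher, miR-125a-5p, miR-100-5p and miR-99a-5p, where 5.48% of all 839 miRNAs were. miR-100-5p had 46, 39, 15 and 105 RPM with Dox at days 0, 1, 2 and 4, against 34, 13, 12 and 63 RPM without Dox, and was 2.51 higher in log2 at day 4 than at day 2 (SE 0.58, limma adjusted p 0.00048). miR-99a-5p, 1 base away from it (U16A), had near-equal values, so the pair may share reads. let-7a-5p and let-7c-5p, whose other copies lie in these clusters, fell between the same days, as given above.

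let-7j, which the rule for members leaves out, was added after its values were seen.
let-7j: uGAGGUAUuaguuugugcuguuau
let-7i-5p: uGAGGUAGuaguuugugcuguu
It differs from let-7i-5p within the first 22 bases by G8U, the last base of the seed, and it had 0.912 to 0.984 times the level of let-7i-5p in all 8 libraries. let-7i-5p had 126 RPM and let-7j 116 RPM at day 4 with Dox, for example. Pairs of miRNAs that are not both members, differ by 1 substitution and have means of at least 10 RPM were also compared. Of these, 12 of 16, the let-7i-5p and let-7j pair included, lay within 20% of each other in all 8 libraries. None of the 4 pairs 1 substitution apart among the 36 pairs of 5p members did so in all 8. Even so, let-7c-5p was at only 1.10 to 1.28 times let-7b-5p. The labels do not say whether let-7i and let-7j reads were told apart in counting. let-7k and miR-1961, the 2 other RefSeq miRNAs with the let-7 seed, have 0 rows in the table.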

How the data were processed

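Total RNA was extracted with TRIzol and turned into libraries with NEBNext's small RNA set, per the labels' protocols. The deposited values are scores: RPM rounded to whole numbers, which sum to between 999965 and 1000047 per library. The submitters' processing notes name Bowtie and mm10. Not given in the sources used here are versions, the counting tool, the mismatches allowed and the treatment of multiply matching reads. A blank row (1) that names no miRNA was left out.

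Implied reads are the smallest total up to 950000 at which every value is the rounding of whole reads within 0.5 RPM. In 6 of the 8 libraries larger totals also matched, up to 940278, so intervals may be wider than the data require. Shares and ratios have exact binomial intervals at 95%.

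Tests used limma 3.58.1 in R 4.3.3 on log2(RPM + 1), with a variance trend, a robust prior and p-values adjusted (Benjamini-Hochberg) over 839 miRNAs. The + 1 understates the change of low miRNAs. Python 3.11.15 with scipy 1.17.1 did the rest. Terms were day as a factor and treatment, leaving 3 residual degrees of freedom; the slope model added treatment by day, leaving 2. The prior degrees of freedom were infinite for 800 of the 839 miRNAs, so most SEs come from the trend over miRNAs. P-values measure the spread between these libraries only, which may be technical. The method was tested on simulated data. For the limma tests these were drawn with the same dispersion for every miRNA, so they do not give the error rate in these unreplicated libraries.

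Day was a block by design. The members, the partner and marker lists and the rules were chosen with earlier results of these data known. Named miRNAs were the members, other miRNAs with the seed, the miR-99, miR-100 and miR-125 partners, and the 5 miRNAs most correlated with the 5p sum; let-7j was added after its values were seen. Alternatives were other pseudocounts, filters, scalings, prior variance, terms, limma-voom on implied reads, and leaving out days. Leaving out single libraries was added after the day 4 no-Dox library was seen to stand apart in the miR-302 markers. The loop of 1 hairpin is not reported here.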

Additional observations from a re-analysis of the deposited data

How the results depend on the processing

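No called let-7 member turned its direction in any alternative tried, and the miR-99, miR-100 and miR-125 partners were not run under them. Many of these alternatives could not turn it: filters, prior variance, the treatment term and leaving out days or libraries not compared leave the fitted change as it was. Counts of members called are given here where they differed by more than 1.5 times from the value reported. For day 4 against day 2, with 4 called, the count was 2 with no filter, 1 with prior variance not robust and 1 with no treatment term. Leaving out a day or a library gave 0 to 4. For day 4 against day 0, with 1 called, it was 2 with a pseudocount of 0.5, 2 with a mean of at least 10 RPM, and 0 with median-of-ratios scaling, with scaling to the reads outside the miR-290 to miR-295 cluster, and with prior variance not robust. Leaving out a day or a library gave 0 to 1. For day 1 against day 0, with 6 called, the other settings gave 4 to 7, and leaving out a day or a library gave 0 to 8. The cause of these differences was not tested, except that leaving out a library of a compared day leaves that day with 1 library. For day 2 against day 1, Dox against no Dox and the slope of the Dox difference the count was 0 in the alternatives run, including 0 for Dox with no replicate block. Over all miRNAs without that block 0 passed, against 16 with it. Day, which supplies 1 library of each treatment, is the only pairing here. Prior variance that was not robust also lowered the calls over all miRNAs to 13 for day 1 against day 0, against 68 with robust prior variance. Depth limits the 3p arms and miR-98-5p, with levels near 3 reads, and also let-7d-5p, with 3 to 19 reads per library.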
